A study of Mus musculus with 207 samples.

Results

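The comparison described here is that of livers of mice fed the CAS FAT-55 diet with livers of mice fed the CAS FAT-20 diet. Libraries were chosen by their diet label alone, 11 in each group, which makes 22 of the 207 libraries in the series. All mice were C57BL/6, an inbred strain. In 3 tissues, the study set fat levels of 20, 40 and 55 against 2 sources of protein, CAS and WPI, with the protein level at 30 throughout. From what is known of the study, CAS is read as casein and WPI as whey protein isolate, neither of which is spelled out in the labels. The unit of the fat and protein levels is not stated there. Both CAS groups therefore shared strain, protein source and protein level and differed in the fat label. The labels state neither sex, age, time on the diet nor batch. Beside the 2 CAS groups, this account uses 12 CAS FAT-40 livers and, as the same fat contrast in other mice, 12 WPI FAT-55 and 12 WPI FAT-20 livers. The question behind the series is how the kind of protein eaten changes the response of mice to fat in the diet.

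The liver takes up fatty acids from the blood, builds them from sugar, burns them in mitochondria and peroxisomes, stores them as triglyceride in lipid droplets, and exports them on lipoproteins. The nuclear receptor PPARα drives the burning programme, SREBP-1c and insulin drive the building programme, and PPARγ, scarce in lean liver, accompanies lipid storage. In rodents a further set of liver genes differs between the sexes because growth hormone is secreted in pulses in males and more evenly in females, a difference read by the transcription factor STAT5b. Injured liver in turn lays down collagen, which stellate cells make, and draws in macrophages from the blood.

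Values are reads of a gene per 1e6 gene reads of the library (CPM) after scaling by edgeR's trimmed mean of M-values. Each group is given by its lowest, median and highest library. Log2 fold changes are FAT-55 over FAT-20 ± a standard error (SE) worked back from the test statistic. Adjusted p-values are those of edgeR's quasi-likelihood test with Benjamini-Hochberg adjustment over all 15051 genes tested, and genes under 0.05 are called. Libraries of the contrast held 21 to 29 M gene reads (M, 1e6) on FAT-55 and 22.5 to 28.2 M on FAT-20. On the first principal component of all 70 livers (24.2% of variance) the FAT-55 libraries lay between 13.11 and 32.99 and the FAT-20 libraries between -27.92 and -4.96. The FAT-20 library nearest to the other group, replicate 4, stood apart from its group in immune genes. Its summed macrophage genes came to 1745 CPM, while the FAT-55 livers reached at most 1279 CPM and the other FAT-20 livers at most 866.1 CPM. Counts for the macrophage, Kupffer, T and NK cell, interferon and MHC class II lists are therefore given with and without it for CAS FAT-55. Counts for FAT-40 and for the comparison of CAS with WPI include it. Fold changes of single immune genes include it. Without it 3486 genes were higher and 3291 lower over all genes. The Y-linked Ddx3y was read in all 22 libraries, at 79.95 to 100.6 CPM (median 94.8) on FAT-55 and 84.6 to 107 CPM (median 94.7) on FAT-20, so every mouse carried a Y chromosome. Hepatocyte markers summed to 69390 to 86050 CPM (median 78960) on FAT-55 and 77620 to 115400 CPM (median 99550) on FAT-20, and 5 of the 8 fell by the test. Mouse identifiers fall into 4 stems per group, whose meaning the labels do not state. The p-values treat the 11 livers of a group as separate animals.

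FAT-55 livers differed from FAT-20 livers in 6507 of 15051 genes tested (43.2%), with 3394 higher (22.5%) and 3113 lower (20.7%). Changes of 2-fold or more were fewer, with 506 genes higher and 206 lower, and changes of 4-fold or more numbered 90 and 51. The CPM ranges of the groups did not overlap in 701 genes (4.66%), of which 360 were higher on FAT-55 (2.39%) and 341 lower (2.27%). Because so large a share of genes was called, each count of members below is to be read against 22.5% higher and 20.7% lower. The median log2 fold change over all genes tested was -0.001.

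The largest rise among called genes with a mean of at least 1 CPM was that of Cyp2b13, a cytochrome P450 that female mouse livers express and male livers keep low. It lies on chromosome 7 from 26061497 to 26096197 on the plus strand of GRCm38, and its neighbour Cyp2b9, of the same habit, lies from 26173411 to 26210661. Their RefSeq promoter windows (250 bases before to 50 after the start, GRCm38.p6, both plus strand, chr7:26061245-26061544 and chr7:26173159-26173458) are shown because these are the members with the largest fold changes and because the windows are nearly one sequence. Capitals mark the 2 of 300 bases that differ.
Cyp2b13: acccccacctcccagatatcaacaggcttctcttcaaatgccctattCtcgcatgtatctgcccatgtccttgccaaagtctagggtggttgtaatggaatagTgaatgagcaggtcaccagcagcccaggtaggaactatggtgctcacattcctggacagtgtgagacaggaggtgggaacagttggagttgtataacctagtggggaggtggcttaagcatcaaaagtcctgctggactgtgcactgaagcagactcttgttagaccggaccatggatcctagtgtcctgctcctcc
Cyp2b9: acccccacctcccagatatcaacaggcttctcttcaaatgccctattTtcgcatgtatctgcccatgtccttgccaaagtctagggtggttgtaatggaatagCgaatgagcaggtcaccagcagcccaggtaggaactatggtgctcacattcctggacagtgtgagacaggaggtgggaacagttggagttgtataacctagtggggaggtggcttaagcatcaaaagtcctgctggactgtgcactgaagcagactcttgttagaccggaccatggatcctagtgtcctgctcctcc
The windows were alike at 298 of 300 bases (99.3%), whereas the window of Cyp2b10, the third gene of the family here, matched them at 48.8% and 49.2% of compared bases. By sequence alone 27.3% of the 50-base stretches of Cyp2b13 transcripts and 11.2% of those of Cyp2b9 also occur in another gene, among them each other and Cyp2b10, so some of their reads may be shared.

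Cyp2b13 had 2.78 to 40.8 CPM (median 18.3) on FAT-55 and 0 to 0.645 CPM (median 0) on FAT-20. In 8 FAT-20 livers it had no read at all, and the ranges did not overlap. The log2 fold change was 7.95 ± 0.94 (adjusted p = 7.25e-10), and without FAT-20 replicate 5, the highest of its group, it came to 9.67. Cyp2b9 had 189 to 469 CPM (median 339) on FAT-55 and 0.143 to 18.7 CPM (median 0.581) on FAT-20. The same FAT-20 replicate 5 was its highest, far above the other livers of that diet, yet below every FAT-55 liver. Its log2 fold change was 6.93 ± 0.95 (adjusted p = 2.95e-08), or 8.21 without that library. Cyp2a4, a female-predominant steroid hydroxylase, had 4.06 to 40.9 CPM (median 18.1) on FAT-55 and 0.0357 to 0.611 CPM (median 0.254) on FAT-20, with no overlap (log2 fold change 6.35 ± 1.0, adjusted p = 6.57e-07). Because 38.0% of its 50-base stretches occur in Cyp2a5 or a pseudogene, part of this difference may belong to Cyp2a5. Hao2, a peroxisomal hydroxyacid oxidase that is also female-predominant in mouse liver, had 2.46 to 19.6 CPM (median 7.19) on FAT-55 and 0 to 0.755 CPM (median 0.131) on FAT-20 without overlap (log2 fold change 5.4 ± 0.71, adjusted p = 1.02e-08). Slc22a27 is a member of the organic anion transporter family, and 30.5% of its 50-base stretches occur in other genes. It had 8.61 to 26.4 CPM (median 16.3) on FAT-55 and 0.193 to 1.31 CPM (median 0.914) on FAT-20 without overlap. Its log2 fold change was 4.42 ± 0.49 (adjusted p = 1.31e-10). The plot of 8 genes by library shows this separation for the cytochromes and for the genes described next.

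**Figure D1:**
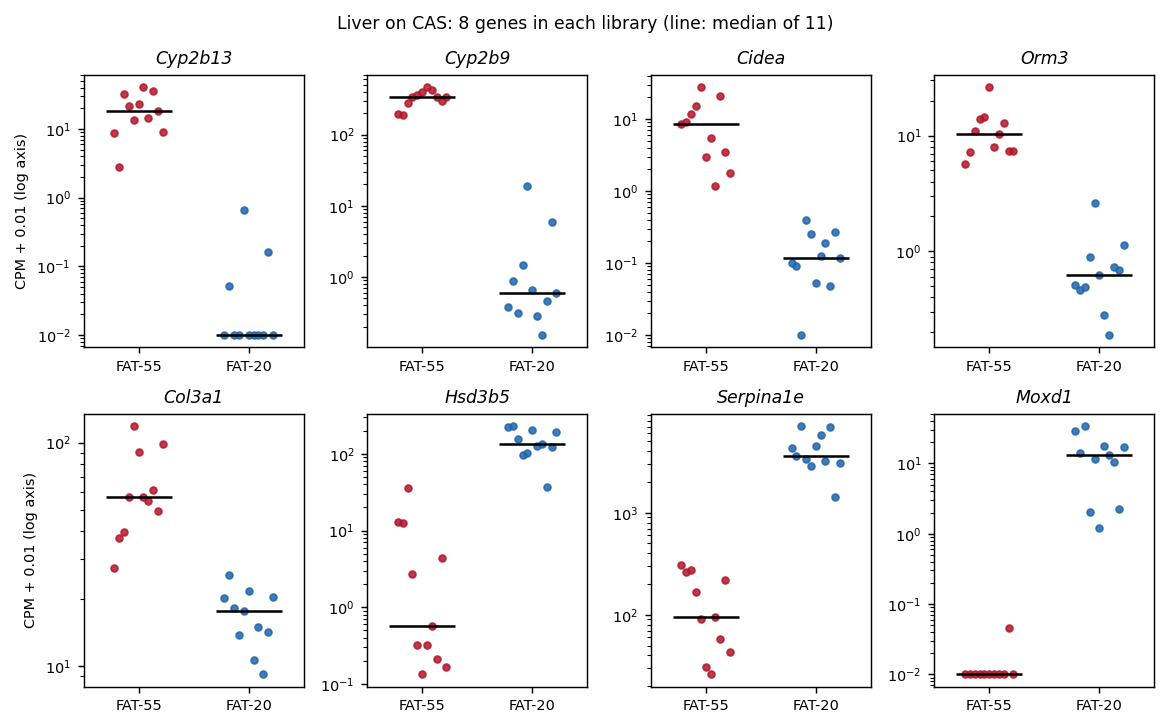
CPM + 0.01 on a log axis for 8 genes in each of the 11 CAS FAT-55 libraries (left) and 11 CAS FAT-20 libraries (right), with lines at the group medians. Cyp2b13, Cyp2b9, Cidea, Orm3 and Col3a1 are higher in every FAT-55 library than in any FAT-20 library, and Hsd3b5, Serpina1e and Moxd1 are lower.

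Cidea, a lipid droplet protein known in mice from brown fat, had 1.17 to 27.9 CPM (median 8.56) on FAT-55 and 0 to 0.386 CPM (median 0.109) on FAT-20. Every FAT-55 liver exceeded every FAT-20 liver, although the FAT-55 livers themselves differed widely, with replicate 5 highest and replicate 8 lowest. Its log2 fold change was 6.05 ± 0.98 (adjusted p = 9.77e-07). Cfd, the complement factor D that fat cells secrete as adipsin, had 1.19 to 10.9 CPM (median 2.94) on FAT-55 and 0 to 0.254 CPM (median 0.0713) on FAT-20, again without overlap (log2 fold change 5.25 ± 0.77, adjusted p = 1.10e-07). Of the 6 fat cell markers listed, 2 were tested, Cfd and 1 other that was not called. That other marker was called lower when FAT-20 replicate 4 was left out. Adipoq, Lep, Plin1 and Retn were too low to be tested. The whole list summed to 5.86 to 14.1 CPM (median 7.81) on FAT-55 and 3.203 to 11.8 CPM (median 5.77) on FAT-20. Any part that fat tissue on the sample had in these values was not tested. Mmp12, the elastase of macrophages, had 2.12 to 34.4 CPM (median 6.899) on FAT-55 and 0.114 to 0.926 CPM (median 0.403) on FAT-20 (log2 fold change 4.4 ± 0.51, adjusted p = 2.84e-10). Its FAT-55 values were highest in replicates 11 and 6, and the groups did not overlap.

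Among genes that fell, Moxd1, a monooxygenase-like protein, was all but lost. It had 1 read in the 11 FAT-55 livers together and 3759 reads in the 11 FAT-20 livers, where it ranged over 1.18 to 33.8 CPM (median 13.4). Taken as FAT-20 over FAT-55 and scaled for depth, that is a ratio of 4070 with a 95% counting interval of 731 to 161000, which covers counting error only. Its RefSeq promoter window (GRCm38.p6, chr10:24223267-24223566, plus strand) is shown because it holds, in capitals, the letters TTCNNNGAA, the spaced palindrome that STAT5 proteins bind.
Moxd1: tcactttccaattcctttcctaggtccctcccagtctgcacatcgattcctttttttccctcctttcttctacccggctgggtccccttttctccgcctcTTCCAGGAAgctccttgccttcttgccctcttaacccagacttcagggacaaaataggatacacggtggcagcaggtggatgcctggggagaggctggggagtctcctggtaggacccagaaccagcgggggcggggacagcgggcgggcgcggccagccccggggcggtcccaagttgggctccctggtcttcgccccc
These letters occur on either strand, the motif being its own reverse complement, in 2726 of 32851 promoter windows (8.30%). They were also in 2 of the 3 windows of Igfals and in none of the windows of Hsd3b5, Slco1a1, Mup3, Susd4, Serpina1e, Igf1, Cyp2b13, Cyp2b9 or Hao2. A match of letters in this window is a description and does not show binding.

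Serpina1e, an α1-antitrypsin gene, had 26.1 to 306 CPM (median 95.5) on FAT-55 and 1428 to 7048 CPM (median 3615) on FAT-20. No FAT-55 liver came near the lowest FAT-20 liver, replicate 10 (log2 fold change -4.87 ± 0.64, adjusted p = 9.66e-09). Since 35.6% of its 50-base stretches occur in other Serpina1 genes, reads may be shared among them. Tff3, a mucosal trefoil peptide, had 0 to 0.318 CPM (median 0.0398) on FAT-55 and 0.617 to 19.01 CPM (median 2.299) on FAT-20, with FAT-20 replicate 3 highest. Its log2 fold change was -5.11 ± 0.89 (adjusted p = 4.37e-06), and -4.39 without that library. Cspg5, a chondroitin sulphate proteoglycan known from brain, had 0 to 0.232 CPM (median 0.119) on FAT-55 and 0.524 to 8.04 CPM (median 2.57) on FAT-20 (log2 fold change -4.83 ± 0.6, adjusted p = 2.22e-09). Adgrf1, an adhesion G protein-coupled receptor, had 0.0795 to 1.06 CPM (median 0.5698) on FAT-55 and 3.67 to 10.7 CPM (median 7.695) on FAT-20 (log2 fold change -3.69 ± 0.43, adjusted p = 4.26e-10). The ranges of all of these were apart.

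Genes that male mouse livers express more than female livers fell as a group. Of the 24 such genes tested, 18 fell and 0 rose, with a median log2 fold change of -1.286. Ranges did not overlap in 8 of them, all lower. Hsd3b5, a steroid dehydrogenase of male liver, had 0.123 to 35.5 CPM (median 0.551) on FAT-55 and 36.8 to 229.5 CPM (median 136) on FAT-20. Its FAT-55 values were spread over more than 2 orders of magnitude, with replicates 1, 2 and 3 highest, and the highest of them reached almost to the lowest FAT-20 liver. The log2 fold change was -4.55 ± 0.8 (adjusted p = 5.05e-06), and -5.44 without FAT-55 replicate 3. Slco1a1, an organic anion and bile salt transporter, had 4.82 to 179 CPM (median 41.5) on FAT-55 and 345 to 584 CPM (median 519.7) on FAT-20 (log2 fold change -2.75 ± 0.39, adjusted p = 5.29e-08). Its lowest FAT-55 livers were replicates 6 and 7, and the groups were apart. Mup3, a major urinary protein that carries pheromones, had 2347 to 8412 CPM (median 3681) on FAT-55 and 8420 to 11210 CPM (median 9534) on FAT-20, the ranges nearly touching (log2 fold change -1.06 ± 0.13, adjusted p = 3.28e-09). In Hsd3b5, Slco1a1, Mup3 and Serpina1e alike, the 5 highest FAT-55 livers were replicates 1, 2, 3, 4 and 10. By sequence alone, 21.2% of the 50-base stretches of Hsd3b5 and 15.6% of those of Mup3 occur in other genes, so reads may be shared.

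Susd4, a complement regulator, had 8.58 to 23.9 CPM (median 16.3) on FAT-55 and 34.5 to 57.5 CPM (median 42.1) on FAT-20 (log2 fold change -1.5 ± 0.19, adjusted p = 6.74e-09). Cyp4a12b, a fatty acid and arachidonate hydroxylase, had 0.833 to 30.1 CPM (median 7.08) on FAT-55 and 62.3 to 162 CPM (median 88.8) on FAT-20 (log2 fold change -3.58 ± 0.5, adjusted p = 4.91e-08, or -4.60 on the log2 scale without the stem of FAT-55 replicates 3 to 5), with 49.4% of its 50-base stretches shared with Cyp4a12a. Cyp7b1, which hydroxylates oxysterols in the alternative pathway to bile acids, had 58.98 to 126 CPM (median 91.9) on FAT-55 and 176 to 304 CPM (median 239) on FAT-20 (log2 fold change -1.28 ± 0.24, adjusted p = 1.75e-05). Ranges were apart in all of these, and likewise in Ugt2b38, a glucuronosyltransferase at 0.123 to 1.36 CPM (median 0.398) on FAT-55 and 1.59 to 10.7 CPM (median 4.98) on FAT-20 (log2 fold change -3.37 ± 0.67). Of the 50-base stretches of Ugt2b38, 37.4% occur in other genes. Female-predominant genes did not move as one. Of the 24 listed, 16 were tested. Of these, 7 rose and 2 fell, the 7 including Cyp2b13, Cyp2b9, Cyp2a4 and Hao2, and the median log2 fold change was 0.376. Cyp3a16, Cyp3a41a, Cyp3a41b, Cyp3a44, Sult2a1, Sult2a2, Sult3a1 and A1bg were too low to be tested. The filter on low counts can pass a gene that is high in 1 diet group alone. The 7 of 16 is therefore not a share of the whole list. The plot of sex-biased genes shows the male-predominant genes mostly below 0 on CAS and the largest rises among the female-predominant genes.

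**Figure D2:**
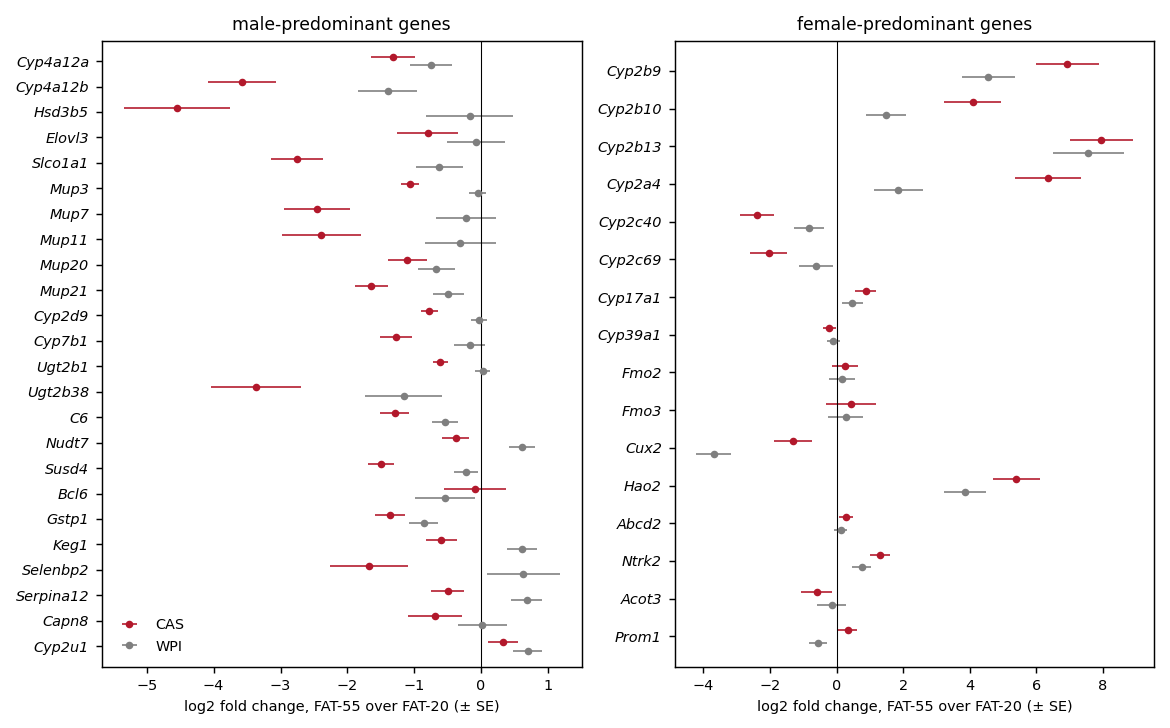
Log2 fold change of FAT-55 over FAT-20 (± SE) for 24 male-predominant genes (left) and 16 female-predominant genes (right), on CAS (red, 11 against 11 livers) and on WPI (grey, 12 against 12 livers). On CAS, 18 male-predominant genes fell and 0 rose, while on WPI 3 fell and 4 rose.

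Of 15 genes of the growth hormone axis tested, 3 rose and 5 fell. Ghr, the growth hormone receptor, had 554 to 749 CPM (median 657) on FAT-55 and 456 to 752 CPM (median 629) on FAT-20, a difference within the spread of livers (log2 fold change 0.09 ± 0.08, adjusted p = 0.323). Stat5b, the factor downstream of the receptor, had 64.3 to 99.5 CPM (median 72.3) on FAT-55 and 53.8 to 80.2 CPM (median 60.5) on FAT-20 and rose slightly (log2 fold change 0.25 ± 0.07, adjusted p = 0.00171), with overlapping ranges. Its relative Stat5a had 18.28 to 26.1 CPM (median 21.46) on FAT-55 and 8.55 to 17.09 CPM (median 13.42) on FAT-20. Stat5a rose with the ranges apart (log2 fold change 0.69, adjusted p = 5.49e-07). Of its 50-base stretches, 10.8% also occur in Stat5b. Socs2, Igf1 and Igfals, which growth hormone induces, fell. Socs2, a feedback inhibitor of the receptor, had 4.18 to 33 CPM (median 9.79) on FAT-55 and 10.04 to 155 CPM (median 50.6) on FAT-20 (log2 fold change -2.33 ± 0.4, adjusted p = 2.85e-06). Igf1, the growth factor that liver releases under growth hormone, had 388 to 781 CPM (median 517) on FAT-55 and 645 to 1092 CPM (median 774) on FAT-20 (log2 fold change -0.55 ± 0.1, adjusted p = 1.07e-05). The ranges of Socs2 and Igf1 overlapped, with FAT-55 replicate 4 highest of its group in both. Igfals, which holds IGF-1 in its circulating complex, had 63.4 to 117 CPM (median 87.8) on FAT-55 and 114 to 169 CPM (median 141) on FAT-20, where 1 liver lay below the highest FAT-55 liver (log2 fold change -0.69 ± 0.09, adjusted p = 9.32e-09). Igfbp2, an IGF-binding protein, had 82.5 to 220.4 CPM (median 137) on FAT-55 and 325 to 673 CPM (median 500.5) on FAT-20, with the ranges apart (log2 fold change -1.78 ± 0.23, adjusted p = 7.48e-09).

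Genes for taking up and storing fatty acids contained some of the most separated members of the contrast. Pparg, the PPARγ gene, had 12.9 to 36.5 CPM (median 21.1) on FAT-55 and 4.32 to 9.59 CPM (median 7.004) on FAT-20, with no overlap (log2 fold change 1.68 ± 0.23, adjusted p = 3.86e-08). Cd36, the fatty acid translocase, had 254 to 382 CPM (median 318) on FAT-55 and 34.1 to 96.5 CPM (median 59.1) on FAT-20. Every FAT-55 liver was far above the highest FAT-20 liver (log2 fold change 2.42 ± 0.28, adjusted p = 4.54e-10). Mogat1, which makes diacylglycerol, had 4.48 to 10.3 CPM (median 7.13) on FAT-55 and 0.218 to 1.396 CPM (median 0.569) on FAT-20, also apart (log2 fold change 3.36 ± 0.41, adjusted p = 1.27e-09). Plin4, a coat protein of lipid droplets, had 67.6 to 198 CPM (median 104) on FAT-55 and 20.8 to 55.1 CPM (median 25.9) on FAT-20 and did not overlap (log2 fold change 1.95 ± 0.35, adjusted p = 6.68e-06). Cidec, a relative of Cidea that fuses lipid droplets in white fat cells, had 23.6 to 124 CPM (median 59.5) on FAT-55 and 4.64 to 36.5 CPM (median 7.83) on FAT-20, where replicate 7 reached into the FAT-55 range (log2 fold change 2.4 ± 0.45, adjusted p = 1.67e-05). Vldlr, the receptor for very low density lipoprotein, had 9.38 to 18.3 CPM (median 15.2) on FAT-55 and 1.6 to 5.697 CPM (median 2.84) on FAT-20 without overlap (log2 fold change 2.2 ± 0.36, adjusted p = 1.20e-06).

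The lists that hold these genes moved both ways. Of 17 lipid droplet proteins and lipases tested, 5 rose and 4 fell. Of 13 genes of triglyceride synthesis 5 rose and 1 fell, or 3 and 1 without FAT-55 replicate 5. The count of lower genes was 3 without FAT-20 replicate 4, 2 without FAT-20 replicate 10 or any of FAT-55 replicates 1, 2, 3 and 4, and 0 to 4 without single stems. Of 16 uptake and transport genes, 6 rose and 5 fell. Among those that fell was Hsd17b11, a droplet-associated dehydrogenase, at 192 to 290.3 CPM (median 218) on FAT-55 and 298 to 465 CPM (median 343) on FAT-20 (log2 fold change -0.67 ± 0.09). Acsl1, which activates fatty acids for oxidation and synthesis, had 1199 to 2746 CPM (median 1701) on FAT-55 and 2312 to 3920 CPM (median 2801) on FAT-20 (log2 fold change -0.76 ± 0.12). Slc27a2, a fatty acid transport protein that also activates very long chains, had 1288 to 1792 CPM (median 1553) on FAT-55 and 1875 to 2487 CPM (median 2093) on FAT-20 without overlap (log2 fold change -0.48 ± 0.08). Fabp2, the intestinal fatty acid-binding protein, which liver also expresses, had 113 to 179.8 CPM (median 145) on FAT-55 and 61.6 to 107 CPM (median 80.4) on FAT-20 and rose (log2 fold change 0.83 ± 0.13). Fabp2 is also on the list of gut epithelium markers, where the only other tested member, Lgals4, fell (log2 fold change -0.87 ± 0.13) and Cdx1 had no read in the 22 libraries.

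Fatty acid synthesis genes rose in part. Of 18 tested, 8 rose and 1 fell, or 5 rose without the stem of FAT-55 replicates 6 to 8 or that of FAT-20 replicates 7 to 9. Srebf1, which encodes SREBP-1c, had 189 to 514 CPM (median 246) on FAT-55 and 62.1 to 174 CPM (median 109) on FAT-20, with no overlap (log2 fold change 1.36 ± 0.23, adjusted p = 2.24e-06). Fasn, fatty acid synthase, had 105 to 334 CPM (median 204) on FAT-55 and 74.96 to 234 CPM (median 107) on FAT-20 with broad overlap (log2 fold change 0.86 ± 0.25, adjusted p = 0.00484). Scd2, a stearoyl-CoA desaturase, had 5.45 to 11.6 CPM (median 9.42) on FAT-55 and 4.01 to 9.76 CPM (median 5.303) on FAT-20 (log2 fold change 0.64 ± 0.12, adjusted p = 2.03e-05). Scd1, the main hepatic desaturase, had 7388 to 15290 CPM (median 11760) on FAT-55 and 3151 to 10530 CPM (median 7081) on FAT-20. Its call (log2 fold change 0.84 ± 0.32, adjusted p = 0.0263) was lost when the stem entered the test, at an adjusted p of 0.114 with sums by stem, and the same holds for Mlxipl, the gene of ChREBP (log2 fold change -0.25 ± 0.1), at 0.200.

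Genes of fatty acid oxidation and PPARα targets fell. Of 31 tested, 17 fell and 2 rose, 9 of the 17 without overlap between the groups, and the median log2 fold change was -0.331. The count of 2 that rose became 1 when any of 11 single libraries was left out, namely FAT-55 replicates 4, 5, 9, 10 and 11 and FAT-20 replicates 4, 7, 8, 9, 10 and 11. Cyp4a31, an ω-hydroxylase, had 6.74 to 15.7 CPM (median 11.9) on FAT-55 and 57.5 to 168 CPM (median 109.7) on FAT-20 (log2 fold change -3.18 ± 0.28, adjusted p = 7.98e-14), with 21.7% of its 50-base stretches in other genes, among them Cyp4a10 and Cyp4a32. Ehhadh, the bifunctional enzyme of peroxisomal oxidation, had 437 to 677 CPM (median 513) on FAT-55 and 822 to 3681 CPM (median 1786) on FAT-20. FAT-55 livers were tightly grouped and FAT-20 livers spread, and none overlapped (log2 fold change -1.86 ± 0.19, adjusted p = 5.19e-12). Hadha and Hadhb, the subunits of the mitochondrial trifunctional protein, changed alike. Hadha had 401 to 523 CPM (median 449) on FAT-55 and 602 to 811 CPM (median 662) on FAT-20 (log2 fold change -0.59 ± 0.06, adjusted p = 3.30e-11). Hadhb had 202 to 276 CPM (median 243) on FAT-55 and 315 to 443 CPM (median 345) on FAT-20 (log2 fold change -0.61 ± 0.06, adjusted p = 2.17e-11). Ppara itself had 176 to 282 CPM (median 233) on FAT-55 and 170.1 to 298 CPM (median 249) on FAT-20, a difference within the spread (log2 fold change -0.04 ± 0.11, adjusted p = 0.801). Fgf21, a fasting hormone and PPARα target, had 1.502 to 15.7 CPM (median 2.86) on FAT-55 and 2.31 to 18.7 CPM (median 4.13) on FAT-20 and was not called (log2 fold change -0.52 ± 0.39, adjusted p = 0.289), though it was without FAT-55 replicate 11, its highest FAT-55 liver (log2 fold change -0.98, adjusted p = 0.0351). Without FAT-20 replicate 1 the value was -0.20 (adjusted p = 0.709), and without the stem of FAT-20 replicates 1 to 3 it turned to 0.24, so no direction is read for Fgf21.

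**Figure D3:**
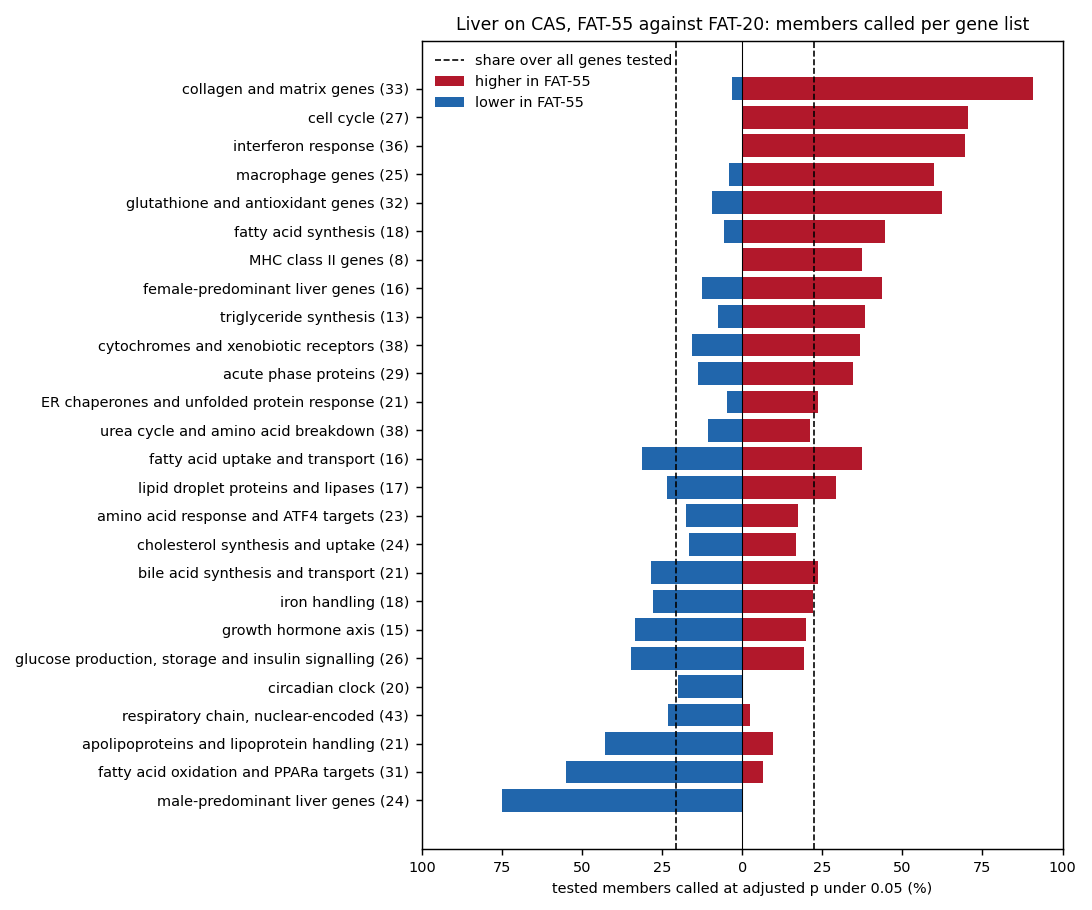
Share of tested members of 26 gene lists called higher (red, right) or lower (blue, left) in CAS FAT-55 than in CAS FAT-20 livers, with the number tested in brackets and dashed lines at the shares over all genes tested (22.5% higher, 20.7% lower). Collagen, cell cycle, interferon, macrophage and glutathione lists lie mostly to the right, and male-predominant and fatty acid oxidation lists mostly to the left.

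Of 21 apolipoprotein and lipoprotein genes tested, 9 fell and 2 rose. Apom, the HDL apolipoprotein that carries sphingosine 1-phosphate, had 56.1 to 86.4 CPM (median 68.9) on FAT-55 and 124 to 209 CPM (median 173) on FAT-20, wholly apart (log2 fold change -1.32 ± 0.12, adjusted p = 1.94e-13). Apoa4, an apolipoprotein of triglyceride-rich particles, rose, at 87.3 to 499 CPM (median 193) on FAT-55 and 33.7 to 111 CPM (median 55.8) on FAT-20 (log2 fold change 2.16 ± 0.35, adjusted p = 9.05e-07). Only FAT-20 replicate 7 lay above the lowest FAT-55 liver. Apoa1, the main HDL protein, had 2642 to 5776 CPM (median 3887) on FAT-55 and 3090 to 8164 CPM (median 6112) on FAT-20 (log2 fold change -0.62 ± 0.14, adjusted p = 3.75e-04). Mttp, which loads lipid onto apolipoprotein B, had 265 to 358 CPM (median 312) on FAT-55 and 326 to 474 CPM (median 378) on FAT-20 (log2 fold change -0.37 ± 0.06). Lcat, which esterifies HDL cholesterol, had 309 to 431 CPM (median 351) on FAT-55 and 411 to 506 CPM (median 455) on FAT-20 (log2 fold change -0.36 ± 0.07).

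Cholesterol synthesis showed no common direction, with 4 of 24 genes tested higher and 4 lower. The count of higher genes fell to between 1 and 2 when any of 10 single libraries was left out. Of 21 genes of bile acid synthesis and transport, 5 rose and 6 fell. Cyp7a1, the rate-limiting enzyme of bile acid synthesis, had 74.1 to 394 CPM (median 181) on FAT-55 and 122 to 551 CPM (median 261) on FAT-20 and was not called (log2 fold change -0.59 ± 0.32, adjusted p = 0.135). The transporters were split. Slc10a1, which takes bile acids up from blood, had 398 to 657 CPM (median 483) on FAT-55 and 625 to 860.4 CPM (median 748) on FAT-20 and fell (log2 fold change -0.58 ± 0.09, adjusted p = 4.44e-07). Abcc4, which exports them back to blood, had 3.22 to 8.35 CPM (median 5.15) on FAT-55 and 2.07 to 4.09 CPM (median 2.97) on FAT-20 and rose (log2 fold change 0.76 ± 0.12, adjusted p = 1.32e-06).

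Glutathione and antioxidant genes rose in 20 of 32 tested, and 3 fell. Gstm3, a glutathione S-transferase, had 36.1 to 102 CPM (median 59.1) on FAT-55 and 4.46 to 15.8 CPM (median 8.64) on FAT-20 without overlap (log2 fold change 2.93 ± 0.25, adjusted p = 5.90e-14). Gstm2 had 57.3 to 114 CPM (median 87.7) on FAT-55 and 23.4 to 46.03 CPM (median 28.3) on FAT-20 (log2 fold change 1.55 ± 0.18), and Gsta1 had 2.78 to 12.6 CPM (median 6.38) on FAT-55 and 0.0713 to 1.21 CPM (median 0.254) on FAT-20 (log2 fold change 4.09 ± 0.51). Both were apart between the groups. Transcripts of these families are alike, 28.8% of Gstm3 and 89.7% of Gsta1 stretches being shared with other genes, so the single members are less certain than the family. Of 38 cytochromes, conjugating enzymes and xenobiotic receptors, 14 rose and 6 fell. Aldh1b1, a mitochondrial aldehyde dehydrogenase, had 57.7 to 102 CPM (median 76.6) on FAT-55 and 17.5 to 44.5 CPM (median 30.7) on FAT-20 without overlap (log2 fold change 1.35 ± 0.14, adjusted p = 1.43e-11). Nr1i3, which encodes the receptor CAR that can induce Cyp2b genes, had 41.7 to 80.2 CPM (median 52.4) on FAT-55 and 44.8 to 86.3 CPM (median 63.03) on FAT-20, a difference within the spread (log2 fold change -0.19 ± 0.18, adjusted p = 0.4197).

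Acute phase genes, which liver secretes during inflammation, were divided, with 10 of 29 higher and 4 lower. Orm3, an α1-acid glycoprotein gene on chromosome 4 from 63356162 to 63359511, had 5.64 to 26.4 CPM (median 10.2) on FAT-55 and 0.178 to 2.58 CPM (median 0.611) on FAT-20. FAT-55 replicate 6 was highest and FAT-20 replicate 5 highest of its group, and the ranges were apart (log2 fold change 3.86 ± 0.4, adjusted p = 1.26e-11). Il1rn, the interleukin-1 receptor antagonist, had 4.44 to 30.6 CPM (median 8.56) on FAT-55, with replicate 11 far above the rest, and 1.66 to 6.63 CPM (median 3.85) on FAT-20 (log2 fold change 1.39 ± 0.21, adjusted p = 3.25e-07). Steap4, a metalloreductase, had 149 to 279 CPM (median 194) on FAT-55 and 61.4 to 187 CPM (median 93.1) on FAT-20 and rose (log2 fold change 0.85 ± 0.15). C3, the central complement protein, had 6352 to 9411 CPM (median 6819) on FAT-55 and 8147 to 12670 CPM (median 10170) on FAT-20 and fell (log2 fold change -0.52 ± 0.09).

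Collagen and matrix genes rose almost throughout, in 30 of 33 tested with 1 lower, and the median log2 fold change was 0.929. In 9 of them the groups did not overlap. Col3a1, a fibrillar collagen on chromosome 1 from 45311538 to 45349706, had 27.4 to 118 CPM (median 57.03) on FAT-55 and 9.14 to 25.4 CPM (median 17.5) on FAT-20. Its highest FAT-55 livers were replicates 5, 11 and 6 and its lowest was replicate 1, which was still above every FAT-20 liver (log2 fold change 1.9 ± 0.25, adjusted p = 9.87e-09). Col1a2, which encodes a chain of type I collagen, had 11.7 to 54.3 CPM (median 20.2) on FAT-55 and 3.74 to 11.6 CPM (median 6.87) on FAT-20, with the same 3 livers highest (log2 fold change 1.76 ± 0.24, adjusted p = 2.28e-08). Loxl2, which cross-links collagen, had 3.02 to 6.49 CPM (median 4.202) on FAT-55 and 1.29 to 2.56 CPM (median 1.85) on FAT-20 (log2 fold change 1.25 ± 0.16, adjusted p = 4.13e-09). Because 45.8% of its stretches occur in other annotated genes, its reads are less certain. Mmp12, described above, is also on this list.

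In whole tissue, more cells of a type and more RNA per cell cannot be told apart. Of 10 stellate cell markers, 4 rose and 0 fell (2 to 6 rose when single stems were left out), and their summed level was 370.4 to 478 CPM (median 399.6) on FAT-55 and 306 to 509.7 CPM (median 349) on FAT-20. Pdgfrb, a receptor of these cells, had 8.26 to 15.98 CPM (median 11.4) on FAT-55 and 5.21 to 10.98 CPM (median 6.71) on FAT-20 (log2 fold change 0.69 ± 0.14), and Lrat, which makes their retinyl ester, had 17.5 to 39.3 CPM (median 24.2) on FAT-55 and 13.3 to 30.2 CPM (median 16.1) on FAT-20 (log2 fold change 0.55 ± 0.13). Of 10 endothelial markers, 6 rose and 0 fell, with a summed level of 472 to 646 CPM (median 535) on FAT-55 and 315 to 557 CPM (median 478) on FAT-20. Lyve1, which sinusoidal endothelium carries, had 8.43 to 27.3 CPM (median 16.9) on FAT-55 and 5.96 to 13.7 CPM (median 8.31) on FAT-20 (log2 fold change 0.99 ± 0.19). The part of these cell types in the collagen result was not tested.

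Macrophage genes rose in 15 of 25 tested, with 1 lower, and in 20 when FAT-20 replicate 4 was left out. Their summed level was 613 to 1279 CPM (median 996) on FAT-55 and 409.9 to 1745 CPM (median 639.8) on FAT-20, and the highest library of all 22 was that FAT-20 replicate 4. Ccr2, the receptor that brings monocytes out of the blood, had 3.18 to 11.5 CPM (median 4.12) on FAT-55 and 0.741 to 5.05 CPM (median 1.63) on FAT-20 (log2 fold change 1.72 ± 0.26, adjusted p = 1.63e-07). Ccl2, its ligand, had 0.513 to 7.44 CPM (median 1.63) on FAT-55 and 0.0379 to 1.16 CPM (median 0.328) on FAT-20 (log2 fold change 2.41 ± 0.38, adjusted p = 4.62e-07). Itgax, which encodes CD11c, had 1.496 to 11.3 CPM (median 3.29) on FAT-55 and 0.579 to 3.43 CPM (median 0.829) on FAT-20 (log2 fold change 1.93 ± 0.29, adjusted p = 2.07e-07). In all 3 the highest FAT-20 value was that of replicate 4, and FAT-55 replicates 11, 5 and 6 led Ccr2 and Itgax. Markers of resident Kupffer cells gave 0 of 6 higher and 0 lower, with a summed level of 219.8 to 476 CPM (median 375) on FAT-55 and 139 to 825 CPM (median 259) on FAT-20, and 4 of 6 higher without FAT-20 replicate 4. The T and NK cell list gave 5 of 12 higher and 0 lower, 8 without FAT-20 replicate 4 and 3 without FAT-55 replicate 6 or 11. Cd8a, a marker of cytotoxic T cells, had 0.142 to 3.11 CPM (median 0.476) on FAT-55, led by replicates 6 and 11, and 0.0403 to 0.5402 CPM (median 0.183) on FAT-20 (log2 fold change 2.0 ± 0.43, adjusted p = 1.14e-04).

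**Figure D4:**
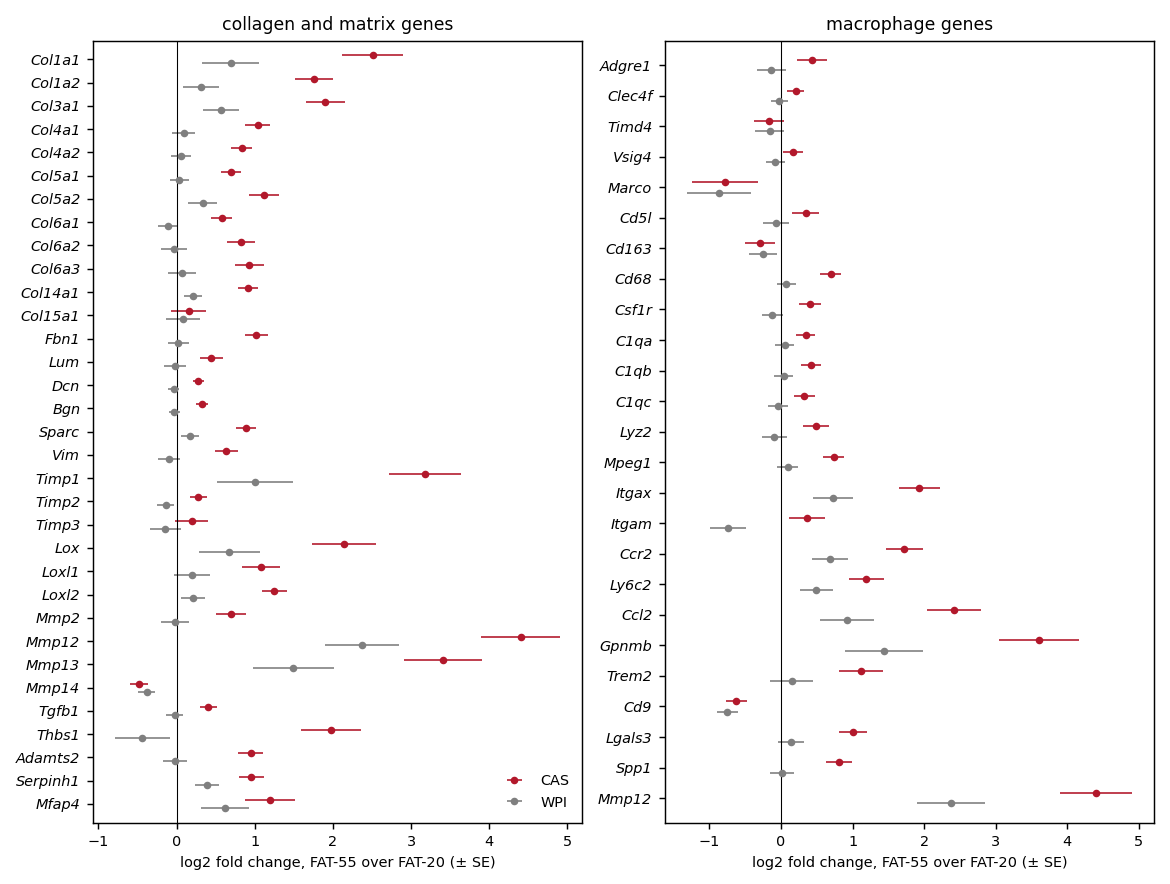
Log2 fold change of FAT-55 over FAT-20 (± SE) for 33 collagen and matrix genes (left) and 25 macrophage genes (right), on CAS (red, 11 against 11 livers) and on WPI (grey, 12 against 12 livers). On CAS, 30 matrix genes and 15 macrophage genes rose, and on WPI 3 and 3.

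Interferon response genes rose in 25 of 36 tested and fell in 0, with a median log2 fold change of 0.563. In 0 of the 36 were the groups apart. Oasl2, an antiviral oligoadenylate synthetase-like protein, had 7.08 to 14.4 CPM (median 10.1) on FAT-55 and 4.02 to 11.3 CPM (median 5.58) on FAT-20, where replicate 4 alone lay within the FAT-55 range (log2 fold change 0.8 ± 0.14, adjusted p = 4.87e-06). Ifit2, an inhibitor of viral translation, had 5.92 to 15.4 CPM (median 10.9) on FAT-55 and 3.299 to 11 CPM (median 4.62) on FAT-20, where again replicate 4 alone lay within the FAT-55 range (log2 fold change 0.96 ± 0.16, adjusted p = 2.44e-06). Without it, 29 of the 36 rose. The summed level of the list was 646 to 977 CPM (median 779) on FAT-55 and 476 to 1176 CPM (median 572) on FAT-20. MHC class II genes, which present antigen, gave 3 of 8 higher, but 7 without FAT-20 replicate 4 and 1 without FAT-55 replicate 6, so no member is named.

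Cell cycle genes rose in 19 of 27 tested and fell in 0, with a median log2 fold change of 0.838. Mcm2, part of the helicase that licenses DNA replication, had 5.13 to 10.2 CPM (median 7.23) on FAT-55 and 1.57 to 4.901 CPM (median 3.11) on FAT-20 without overlap (log2 fold change 1.17 ± 0.17, adjusted p = 1.06e-07). Cdc20, an activator of the anaphase-promoting complex, had 0.916 to 2.24 CPM (median 1.45) on FAT-55 and 0.0758 to 1.003 CPM (median 0.282) on FAT-20, the overlap being FAT-20 replicate 4 (log2 fold change 2.2 ± 0.35, adjusted p = 5.46e-07). The list summed to 144 to 205 CPM (median 157) on FAT-55 and 103 to 151 CPM (median 112) on FAT-20, with FAT-20 replicate 4 again the highest of its group.

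The remaining functional lists are given by their counts. Glucose and insulin signalling genes gave 5 of 26 higher and 9 lower. Irs2, the insulin receptor substrate, had 20.6 to 54.6 CPM (median 29.6) on FAT-55 and 36.7 to 141 CPM (median 77.6) on FAT-20 (log2 fold change -1.22 ± 0.25, adjusted p = 6.67e-05), and Pygl, liver glycogen phosphorylase, had 381 to 488 CPM (median 451) on FAT-55 and 247 to 401 CPM (median 336) on FAT-20 (log2 fold change 0.41 ± 0.08). Amino acid response genes gave 4 of 23 in each direction. Urea cycle and amino acid breakdown gave 8 of 38 higher and 4 lower, and iron handling 4 of 18 higher and 5 lower. Endoplasmic reticulum chaperones gave 5 of 21 higher and 1 lower. Clock genes gave 0 of 20 higher and 4 lower, and nuclear-encoded respiratory chain genes 1 of 43 higher and 10 lower. Of the subunits of complex II, Sdhd fell and Sdha rose. Sdhd had 154 to 180.3 CPM (median 166) on FAT-55 and 185 to 221 CPM (median 207) on FAT-20 (log2 fold change -0.31 ± 0.06), and Sdha had 568 to 672 CPM (median 636) on FAT-55 and 506 to 597 CPM (median 527) on FAT-20 (log2 fold change 0.21 ± 0.05). Most of these small counts moved by over 1.5 times when single libraries or stems were left out, so no direction is read from them. Bile duct, B cell, neutrophil, red blood cell, pancreas and mesothelium lists gave 0 higher and 0 lower among 25 tested markers. Only 1 of 12 pancreas markers and 2 of 8 neutrophil markers were tested, so these 2 lists say little. The B cell and neutrophil counts reached 1 when some single libraries or stems were left out.

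The CAS FAT-40 livers stood between the others for some genes and beyond them for others. FAT-40 differed from FAT-20 in 4539 genes (30.2%), 2369 higher (15.7%) and 2170 lower (14.4%), with the FAT-20 livers shared between both comparisons. Cyp2b9 had medians of 0.581, 161 and 339 CPM at fat levels 20, 40 and 55, Cd36 of 59.1, 182 and 318 CPM, and Col3a1 of 17.5, 37.7 and 57.03 CPM. These climbed with each level. Fasn had medians of 107, 357 and 204 CPM and Srebf1 of 109, 391 and 246 CPM, so that both were highest at the middle level. Fatty acid synthesis genes gave 14 of 18 higher at FAT-40 and 8 at FAT-55. Cholesterol synthesis gave 10 of 24 and 4. Ehhadh was already low at FAT-40, with medians of 1786, 448 and 513 CPM at the 3 levels. Interferon genes gave 4 of 36 higher at FAT-40 and 25 at FAT-55, macrophage genes 2 of 25 and 15. The FAT-20 side included replicate 4, whose interferon sum of 1176 CPM and macrophage sum of 1745 CPM lay above every CAS FAT-40 liver. Those livers reached at most 709.3 and 921.9 CPM. FAT-40 counts were not taken without replicate 4, so no step from FAT-40 to FAT-55 is read from them. Median sums at the 3 levels were 572.4, 630.8 and 778.7 CPM for interferon genes and 639.8, 833.3 and 995.9 CPM for macrophage genes. Oasl2 had medians of 5.58, 6.19 and 10.1 CPM at the 3 levels. Hsd3b5 had medians of 136, 19.9 and 0.551 CPM, lower at each level.

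**Figure D5:**
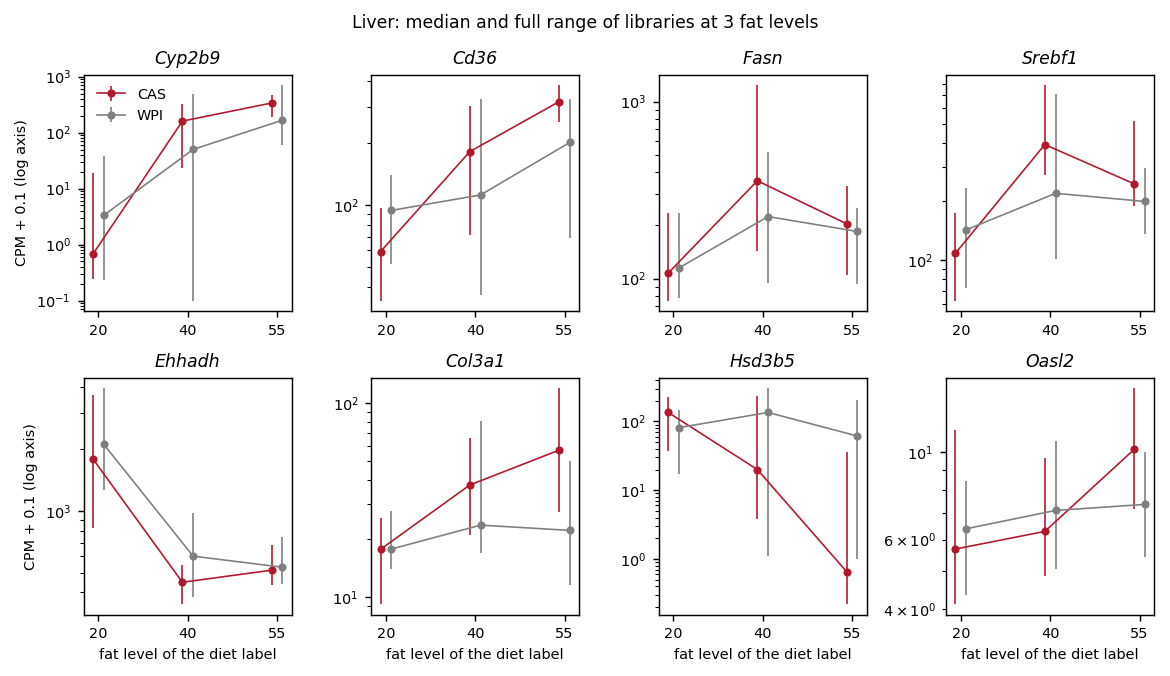
Median CPM + 0.1 on a log axis (points) and full range of libraries (bars) for 8 genes at fat levels 20, 40 and 55, on CAS (red, 11, 12 and 11 livers) and WPI (grey, 12 livers each). On CAS, Fasn and Srebf1 peak at 40, Cyp2b9, Cd36 and Col3a1 climb to 55, and Hsd3b5 drops to a median of 0.551 CPM.

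The same fat contrast on WPI gave 3989 genes (26.5%), 2197 higher (14.6%) and 1792 lower (11.9%). Of these, 2638 were called on CAS in the same direction (40.5% of the CAS calls and 66.1% of the WPI calls) and 45 in the opposite direction. The WPI mice share no library with the CAS mice. Ehhadh and Cyp4a31 fell on WPI too, with log2 fold changes on WPI of -2.02 ± 0.18 and -2.74 ± 0.26. Of the 31 oxidation genes and PPARα targets, 11 fell and 0 rose on WPI. The median log2 fold change was -0.096 on WPI and -0.331 on CAS. The difference between these responses, CAS minus WPI, was called lower for 6 of the 31 and higher for 1. Over all genes the shares were 2.94% lower and 3.76% higher. With the identifier stem as a random effect, 1 of the 31 was called lower and 0 higher. Cyp2b13 rose on WPI by 7.56 ± 1.08 and Cidea by 4.75 ± 1.1, and for neither was the difference from CAS called (adjusted p = 0.976 and 0.763). CAS minus WPI came to 0.38 for Cyp2b13 and 1.3 for Cidea. With the identifier stem as a random effect it came to 2.32 and 2.6, again not called (adjusted p = 0.646 and 0.559). The size of both differences thus depended on the model. Glutathione genes gave 18 of 32 higher and 4 lower on WPI, and cell cycle genes 12 of 27 higher and 0 lower. For glutathione genes the median log2 fold change was 0.438 on CAS and 0.238 on WPI. CAS minus WPI was called higher for 6 of the 32 and lower for 0, or 1 and 0 with stem as a random effect.

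The difference between the FAT-55 responses, CAS minus WPI, was called for 1009 genes (6.70%), with 566 higher (3.76%) and 443 lower (2.94%). Of the 1009, 872 were also called on CAS, and in 852 the CAS change lay farther from 0 than the WPI change. Of the matrix genes 18 of 33 were called higher and 0 lower, and of the male-predominant genes 13 of 24 were called lower and 0 higher. No interferon or cell cycle gene was called, with 0 of 36 and 0 of 27. On WPI alone, 14 of the 36 interferon genes rose and 2 fell. The CAS side of the test included FAT-20 replicate 4, and the test was not repeated without that liver. An equal interferon response on both proteins is therefore not read from the 0 of 36. The counts of differences depend on the mouse as the unit. With counts summed over identifier stems 2 genes were called in all, and with stem as a random effect 108, of which 4 were matrix genes and 4 male-predominant genes. The protein differences named below are therefore less secure than the fat contrast itself, which kept 5028 calls with stem sums and 5285 with the random effect.

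Col3a1 rose by 1.9 on CAS and 0.57 ± 0.23 on WPI, a difference of 1.33 ± 0.34 (adjusted p = 0.0115, and 0.0614 with stem as a random effect). On WPI it had 11.4 to 50 CPM (median 21.9) at FAT-55 and 13.9 to 27.5 CPM (median 17.6) at FAT-20. Hsd3b5 gave -4.55 on CAS and -0.17 ± 0.65 on WPI (difference -4.38 ± 1.0, adjusted p = 0.00531, and 0.112 with the random effect). Mup3 gave -1.06 on CAS and -0.05 on WPI (difference -1.01 ± 0.18, adjusted p = 7.40e-04, and 0.00757 with the random effect). Gstm3 gave 2.93 on CAS and 1.01 on WPI (difference 1.92 ± 0.33, adjusted p = 4.25e-04, and 0.0176 with the random effect). Mup3 and Gstm3 thus kept their calls with stem as a random effect, and Col3a1 and Hsd3b5 did not. With sums by stem none of the 4 kept it, at adjusted p = 0.11 for Mup3, 0.145 for Gstm3, 0.256 for Col3a1 and 0.196 for Hsd3b5.

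Among the 6 genes with the smallest adjusted p for the difference, Adtrp, a hydrolase of fatty acid esters of hydroxy fatty acids, had 96.99 to 133 CPM (median 118) on CAS FAT-55 and 136 to 167 CPM (median 148) on CAS FAT-20, and 134 to 184 CPM (median 147) on WPI FAT-55 and 113 to 139 CPM (median 129) on WPI FAT-20. It thus fell on CAS and rose on WPI (log2 fold changes -0.37 ± 0.06 and 0.24 ± 0.06, difference -0.61 ± 0.08, adjusted p = 3.59e-06). It was also called with sums by stem (adjusted p = 0.0461) and with the random effect (adjusted p = 1.35e-04). Klf6, a zinc finger factor, had 12.2 to 33.5 CPM (median 18.1) on CAS FAT-55 and 9.28 to 14.9 CPM (median 11.2) on CAS FAT-20, and 9.29 to 14.6 CPM (median 12.3) on WPI FAT-55 and 11.2 to 30.7 CPM (median 12.9) on WPI FAT-20. Klf6 rose on CAS (0.75 ± 0.13), where FAT-55 replicate 11 was highest. On WPI it gave -0.37 ± 0.13, with medians close together and a FAT-20 range that reached 30.7 CPM. The difference was 1.12 ± 0.18 (adjusted p = 1.95e-04). Iqsec1, an exchange factor for ARF GTPases, rose on CAS by 0.5 ± 0.06 and gave -0.09 ± 0.06 on WPI. Sptlc2, a subunit of the first enzyme of sphingolipid synthesis, rose by 0.56 ± 0.05 on CAS and 0.14 ± 0.05 on WPI. Sult2a8, a liver sulfotransferase that sulfates bile acids in mice, fell on CAS (-0.73 ± 0.11) and gave 0.21 ± 0.11 on WPI. Pa2g4, a growth-regulated RNA-binding protein, fell on CAS (-0.3 ± 0.04) and gave 0.01 ± 0.04 on WPI.

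Within the 11 CAS FAT-55 livers, Cyp2b13, Cidea, Col3a1 and Orm3 were compared in 6 pairs on log2(CPM + 1). Col3a1 and Orm3 had r = 0.59 (permutation p = 0.056, adjusted 0.34) and rho = 0.65 (permutation p = 0.033, adjusted 0.20), and r = 0.40 without the 2 livers farthest from the Col3a1 median. Cyp2b13 and Orm3 had r = 0.43 (permutation p = 0.19, adjusted 0.57) and rho = 0.55 (permutation p = 0.087, adjusted 0.26). The other 4 pairs had r between -0.04 and 0.19, and 0 of the 6 passed after adjustment over the pairs. With values centred on the stem means several of these turned or changed in size, though again 0 of the 6 passed. Cyp2b13 and Col3a1 then had r = -0.60, against 0.19 without centring, and Cyp2b13 and Orm3 had -0.03, against 0.43. Cyp2b13 and Cidea had 0.57, against 0.13, and Col3a1 and Orm3 had 0.44. No relation is therefore read from these pairs. The 11 livers fall into 4 identifier stems, so they may not be independent.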

How the data were processed

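The authors deposited raw counts of reads per gene for each liver library. STAR and the build GRCm38 are named in the submitters' processing notes, beside Trim Galore 0.61, cutadapt, FastQC and DESeq2 1.24.0, and RNA was extracted with a column kit, per the labels' protocols. Symbols came from GENCODE M21 on GRCm38, and 86 genes had none there. The strand setting of the counting is not given in the sources used here, so reads of overlapping antisense genes may be mixed.

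Rows that name no gene were dropped. Genes passed edgeR's filterByExpr (minimum count 10, minimum total 15), which left 15051 of 55536. All 70 liver libraries were fitted together with edgeR 4.0.16 in R 4.3.3, with TMM scaling, 1 coefficient per diet and the robust quasi-likelihood test. Alternatives used DESeq2 1.42.0, limma 3.58.1 for stem as a random effect, sums by stem, other scaling, no filter and leave-outs. The procedure was tested on simulated data drawn independently for each library, without a stem effect. That test therefore cannot show how the p-values hold if livers of 1 stem are alike. Groups come from the diet label, and replicate numbers follow accession order and pair nothing. The labels do not say whether libraries share a cage or batch, so p-values measure only the spread between these libraries. Counting intervals cover counting error only.

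The members and lists were chosen with earlier results of these data known. The text names up to 8 called genes per direction by fold change (mean of at least 1 CPM), up to 4 called genes per list and 2 per marker list by adjusted p, fixed genes of lipid, hormone and sex biology (some are not reported here), and the 6 genes with the smallest adjusted p in CAS minus WPI. Shared 50-base stretches were counted between GENCODE transcripts of different genes.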

Additional observations from a re-analysis of the deposited data

Results flagged for a closer look

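The response to FAT-55 differed between the protein sources, CAS minus WPI, in 1009 genes by edgeR's test of the difference (6.70% of genes tested). Of the genes chosen for naming, 48 were among them, and 24 of the 48 are given here as differences of log2 fold changes, CAS minus WPI. Cd36 differed by 1.31, Plin4 by 1.66 and Apoa4 by 1.73, and Apom by -0.62 and Acsl1 by -0.69. Col3a1 differed by 1.33 and Orm3 by 1.74. The male-predominant genes named here were more negative on CAS, at -4.38 for Hsd3b5, -2.12 for Slco1a1, -1.01 for Mup3, -1.27 for Susd4 and -2.18 for Cyp4a12b. The growth hormone targets Igfals and Igf1 differed by -0.69 and -0.43. Among leading genes, Cyp2a4 differed by 4.49, Serpina1e by -2.58 and Adgrf1 by -2.91, and Gstm3 by 1.92. The 6 genes with the smallest adjusted p were Adtrp at -0.61, Iqsec1 at 0.58, Sptlc2 at 0.42, Sult2a8 at -0.94, Klf6 at 1.12 and Pa2g4 at -0.32. Of these 24 genes, 12 kept an adjusted p under 0.05 with stem as a random effect, and with sums by stem only Adtrp did. The call was lost with the random effect for Cd36, Plin4, Apoa4, Apom, Col3a1, Orm3, Hsd3b5, Cyp4a12b, Igf1, Cyp2a4, Serpina1e and Adgrf1. Without the filter on low counts 17 kept it. Cd36, Plin4, Orm3, Cyp4a12b, Igf1, Cyp2a4 and Serpina1e lost it there as well.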

How the results depend on the processing

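No paired analysis was possible because the labels carry no replicate numbers, those used here follow accession order, and identifier stems lie within single diets. The CAS FAT-55 contrast called 5028 genes with sums by stem, 5285 with stem as a random effect, 5986 without a filter, 6274 with only its 22 libraries, 6508 with median-of-ratios scaling and 6773 with DESeq2. Leaving out single libraries gave 6113 to 6777 calls, and single stems 5332 to 6594. The difference between proteins called 488 genes without a filter, 2 with sums by stem and 108 with the random effect. With sums by stem the WPI contrast called 2144 genes and CAS FAT-40 called 2736. No called gene named here reversed. Counts for collagen (27 and 28 of 33), male-predominant (15 and 16 of 24) and oxidation genes (16 and 16 of 31) moved by less than 1.5 times with stem sums and random effect. Other counts shrank, given here with stem sums and then the random effect. Higher genes numbered 5 and 6 in fatty acid synthesis (8 with libraries as the unit), 1 and 1 in cholesterol synthesis (4), 2 and 4 in bile acid genes (5), 6 and 9 in acute phase genes (10), 9 and 12 in cytochromes (14), 3 and 2 in T and NK markers (5) and 2 and 2 in stellate markers (4). Lower genes numbered 4 and 5 in the respiratory chain (10), 1 and 1 in the clock (4) and 5 and 6 in glucose genes (9). Without stem L2F, the log2 fold change of Cidec was 3.2 and that of Cspg5 -4.19.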
